A study of Homo sapiens with 4 samples.

Results

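The H3K4me3 ChIP library gave 17975 peaks against input, out of 97318 peaks in the full lists of the 3 antibodies of the series. Every peak of the H3K4me3 full list was taken, without a choice by strength. The list gives for each peak its chromosome, start, end, length, summit (the base of highest tag pileup) and number of tags (aligned reads after removal of duplicates). All cells were HCT116, a human colorectal carcinoma line at passages 15 to 18, with no treatment named in the labels. The H3K4me3 library was made with an Abcam antibody to this mark, and the input library is DNA from the same line without antibody. The TAF3 library used a polyclonal antiserum to human TAF3, and the RNAPII library a Santa Cruz antibody to RNA polymerase II, and both appear below only for comparison. There is 1 library per antibody, so no value has a replicate error and no difference between libraries was tested. The intervals given are 95% intervals over peaks (Wilson for shares, order statistics for medians), and they cover the counting of peaks only.

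H3K4me3 is trimethylation of histone H3 at lysine 4, written by methyltransferases of the SET1 and MLL families. It marks nucleosomes around the start sites of active genes and of many CpG-rich promoters, while the start site itself is often depleted of nucleosomes. TFIID, the general factor that recognises promoters, carries the subunit TAF3, whose PHD finger binds this mark and ties it to assembly of the preinitiation complex with RNA polymerase II.

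The library held 20995096 tags, of which 12560129 remained after duplicates were removed, and 40.2% were redundant, against 14.2% for TAF3 and 16.1% for RNAPII. H3K4me3 peaks held 10319676 of the remaining tags (82.2%). The fragment length that the peak caller modelled was 162 bp for H3K4me3 and 120 bp for both other antibodies. Only 1 tag was kept per position and strand, so removal of duplicates bears most on dense peaks; its part in the densities below was not tested.

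H3K4me3 domains were typically about 2 kb wide, with a shoulder of short, weak peaks. The width ran from 177 to 12312 bp, with a median of 1985 bp (1965 to 2004), a 10th percentile of 671 bp and a 90th percentile of 3248 bp. The fullest bin of 200 bp was that from 2000 to 2200 bp, with 1431 peaks. A lower mode lay between 600 and 800 bp, with 1289 peaks. The median peak held 503 tags, and single peaks held 10 to 4150. The median peak was wider than in the TAF3 full list (1243 bp) and the RNAPII full list (836 bp). In the authors' filtered lists the medians were 2240 bp for H3K4me3, 1549 bp for TAF3 and 1623 bp for RNAPII. The order of TAF3 and RNAPII thus depended on the filter. The widest peaks were those of RNAPII, with a 99th percentile of 7881 bp in the full list against 4787 bp for H3K4me3.

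Tag density, the number of tags per kb of peak, rose with width up to about 4 kb and was lower again in the widest domains. Its median over all peaks was 239 tags per kb (234 to 243), with single peaks from 19.9 to 756. In the 788 peaks of at most 500 bp the median was 33.1 tags per kb. It was 89.7 in the 2448 peaks of 1 to 1.5 kb and 311 in the 3480 peaks of 2 to 2.5 kb. The highest median, 382 tags per kb (377 to 386), was that of the 2137 peaks of 3 to 4 kb. In the 137 peaks wider than 5 kb the density was 322 (301 to 341), an interval that does not reach that of the class from 3 to 4 kb. The deposited fold enrichment over the local background at the summit levelled off likewise, at 11.5 in the shortest class, 157 from 3 to 4 kb and 149 above 5 kb. Across the 17975 peaks the rank correlation was 0.93 between width and tags, 0.79 between width and density, and 0.86 between density and fold enrichment. These measures share the same tags and lengths, so the coefficients are descriptions only.

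**Figure D1:**
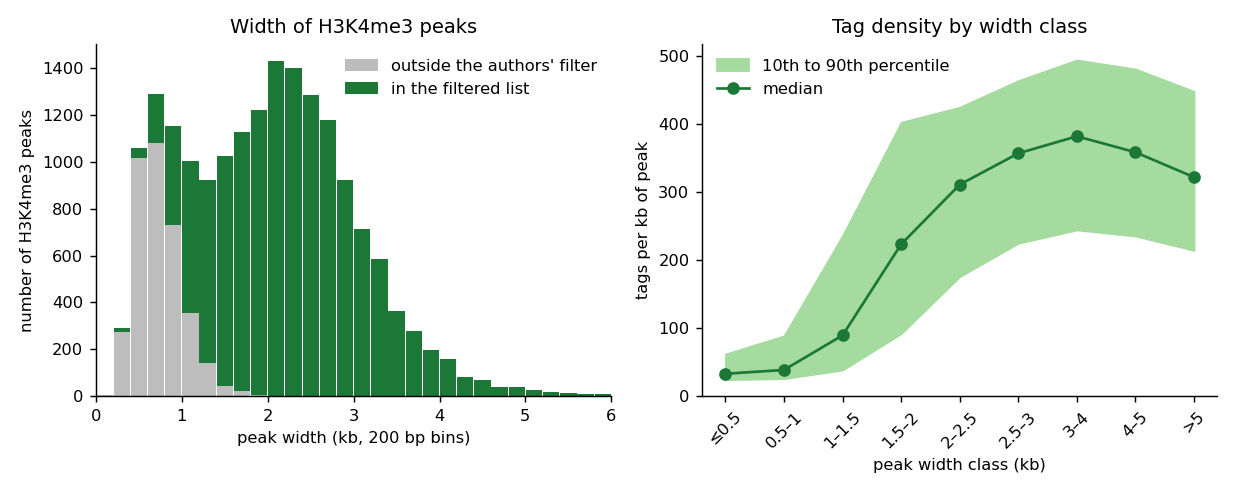
Left, number of H3K4me3 peaks (vertical axis) by width in kb in bins of 200 bp, split into peaks inside (green) and outside (grey) the authors' filtered list; the axis ends at 6 kb and the widest peak is 12312 bp. Right, tags per kb by width class, with the median as points and the 10th to 90th percentile of peaks as a band; the median rises from 33.1 to 382 tags per kb and is 322 in the last class.

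The same width classes differed in how often the other antibodies had a peak at the same place, a readout that did not enter the choice of peaks. A filtered TAF3 peak overlapped 9.64% of H3K4me3 peaks of at most 500 bp, 33.1% of those of 1 to 1.5 kb, 73.2% of those of 1.5 to 2 kb and 92.9% of those of 2 to 2.5 kb. All 137 peaks wider than 5 kb overlapped one (100%, interval from 97.3%). The filtered RNAPII list reached further down the scale, but it is also longer, with 25013 peaks against 11765 for TAF3. Its peaks overlapped 36.0% of the shortest H3K4me3 peaks, 79.6% of those of 1 to 1.5 kb and 98.6% of those of 2 to 2.5 kb. The shares of short peaks depended on the filter. With the full lists, TAF3 overlapped 28.7% of the shortest H3K4me3 peaks and 73.9% of those of 1 to 1.5 kb. For RNAPII these shares were 60.9% and 93.9%. A wider peak also offers more bases to overlap, and the part of width alone was not tested.

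Tags were unevenly spread over the domains. The 180 peaks with most tags (1% of the list) held 4.01% of all tags in H3K4me3 peaks, and the 1798 peaks of the upper 10% held 27.7%. The upper 50% of the list held 86.8%.

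The widest H3K4me3 domain, chr7:5457876-5470187 (hg19, as all positions here), spanned 12312 bp. It also held the most tags, 4150, at 337 tags per kb, and overlapped 2 TAF3 peaks and 1 RNAPII peak of the full lists. The next, chr7:27202470-27214448, spanned 11979 bp with 3248 tags, and its summit lay well off centre, at 20.8% of its width from the lower coordinate. The other 3 of the 5 widest were chr17:79366174-79374674 (8501 bp), chr11:69450850-69459159 (8310 bp) and chr10:114708973-114717178 (8206 bp). All 5 overlapped peaks of both other antibodies.

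None of the 5 densest domains was among the 5 widest. The highest density, 756 tags per kb, was at chr17:80604355-80606514, a peak of 2160 bp. It was followed by chr17:79668405-79671889 with 750, chr16:89778099-89779765 with 747, chr16:85831458-85834885 with 735 and chr17:73256181-73259273 with 734 tags per kb. All 5 lay on chromosomes 16 and 17. The highest fold enrichment was at none of these places. It was 336 at chr5:137547872-137549621 (762 tags in 1750 bp), 326 at chr3:5163422-5165705 and 319 at chr10:120100429-120102530. The densest peak of all had a fold enrichment of 155.

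The authors' filtered list held 14298 of the 17975 peaks (79.5%), compared with 65.8% of TAF3 peaks and 40.7% of RNAPII peaks. The filter asks for more than 5-fold enrichment together with less than 5% false discovery, both from the same library, so what follows describes the filter and supports nothing further. All 3677 H3K4me3 peaks left out had a false discovery rate of at least 5%, 16 of them also had a fold enrichment of at most 5, and 0 were lost by fold enrichment alone. The peaks left out were short and sparse, with a median of 697 bp, 25 tags and 35.1 tags per kb, against 2240 bp, 679 tags and 295 tags per kb inside. Together they held 0.995% of the tags in H3K4me3 peaks. Just inside the threshold lay chr10:115322748-115323638, with 67 tags, a fold enrichment of 20.7 and a false discovery rate of 4.98%. Just outside lay chr2:128173274-128174305, with 55 tags, 21.4 and 5.02%.

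Peaks outside the filter overlapped the other antibodies less often than H3K4me3 peaks in general, but not all were isolated from them. Of the 3677, 1767 (48.1%, 46.4 to 49.7%) overlapped a filtered RNAPII peak, and 317 (8.62%, 7.76 to 9.57%) a filtered TAF3 peak. Against the full lists these shares were 73.5% and 37.9%. For all H3K4me3 peaks, the median share of 23 chromosomes was 84.8% for filtered RNAPII peaks and 65.6% for filtered TAF3 peaks. Within 1 kb of a filtered H3K4me3 peak lay 478 of the peaks left out (13.0%), within 5 kb 857 (23.3%) and within 50 kb 2398 (65.2%). Of the 14298 filtered peaks, 7.64%, 17.1% and 63.1% had another filtered peak within these distances. Of all H3K4me3 peaks, 12.8%, 24.0% and 70.1% had an H3K4me3 neighbour there, but these neighbours include peaks outside the filter. The shares for all peaks are thus not like for like with those of the peaks left out.

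Summits of H3K4me3 peaks lay near the centre and favoured neither side of the reference coordinates. The summit offset is the distance from the peak centre as a percent of the half-length, 0 at the centre and 100 at an edge. Its median was 17.9% (17.6 to 18.2), 9883 peaks (55.0%) had an offset below 20%, and 993 (5.52%) had one above 50%. The summit lay in the part with lower coordinates in 8981 of the 17964 peaks where it was off centre (50.0%, 49.3 to 50.7%). The lists carry no gene strand, so the side relative to transcription was not analysed here.

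The centring depended on width, and not in 1 direction. The median offset was 20.8% in the shortest class, 14.4% (13.8 to 14.9) from 2 to 2.5 kb, 29.2% from 4 to 5 kb and 36.0% (30.7 to 39.9) above 5 kb. Over all widths the rank correlation of offset with width was therefore near 0, at -0.058 across the 17975 peaks.

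Among peaks of at least 2 kb, H3K4me3 summits were more central than those of the other antibodies when all widths were pooled. The summit fell in the central 20% of the peak in 5294 of 8883 H3K4me3 peaks (59.6%, 58.6 to 60.6%). This compares with 42.1% (40.3 to 44.0%) of 2754 TAF3 peaks and 30.8% (29.9 to 31.8%) of 9302 RNAPII peaks. The median offsets were 16.3%, 23.9% and 33.9%. H3K4me3 peaks were also the densest of these, and width classes were not the same in the 3 lists. Within the class from 2 to 2.5 kb the median offset was 14.4% for H3K4me3, 22.3% for TAF3 and 30.2% for RNAPII. Above 5 kb it was 36.0% (30.7 to 39.9) for H3K4me3, 32.1% (20.2 to 47.2) in only 34 TAF3 peaks and 48.0% for RNAPII. Below 1 kb the 3 medians were close, at 20.3%, 20.6% and 21.7%.

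**Figure D2:**
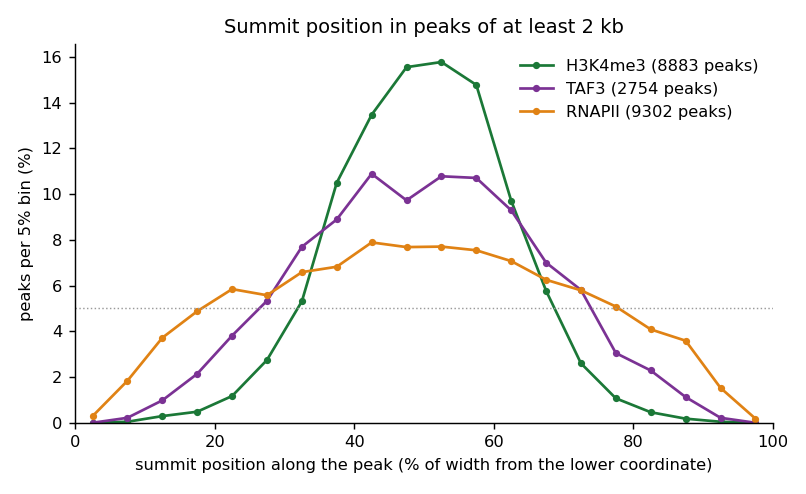
Position of the summit along peaks of at least 2 kb, as a percent of the width from the lower coordinate (horizontal axis), with the share of each list's peaks per 5% bin (vertical axis). The dotted line marks an even spread; the H3K4me3 curve is the narrowest, with 59.6% of peaks in the central 20%, compared with 42.1% for TAF3 and 30.8% for RNAPII.

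Wide H3K4me3 peaks with an off-centre summit were often next to another peak. Of the 333 peaks of at least 2 kb with an offset above 50%, 42.9% had a neighbour within 5 kb, against 13.9% of the 2785 with an offset of at most 10%. Their density was 291 tags per kb (276 to 306), below the 345 (341 to 349) of the central group. The summit nearest an edge among peaks of at least 2 kb and 100 tags was at chr2:241504185-241507824. It lay 94.8% of the way along a peak of 3640 bp, and the next H3K4me3 peak began 212 bp beyond that edge. At chr4:104476029-104480363 the summit lay at 94.6% of 4335 bp, with another peak 118 bp beyond the near edge. At chr19:1040025-1043444 the summit lay at 8.17% of 3420 bp, in a peak that began 42 bp after the end of the peak before. The remaining 2 of the 5, chr16:87900547-87903132 and chr19:12944626-12947271, had no neighbour that close, with nearest gaps of 12604 and 1388 bp.

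The summits of the other antibodies were also placed relative to the H3K4me3 summit. For 14852 H3K4me3 peaks with an overlapping TAF3 peak of the full list, the nearest TAF3 summit lay a median of 208 bp from the H3K4me3 summit. For the 16766 with an RNAPII peak the distance was 252 bp. The partner summit lay on the side of the peak centre, rather than of the near edge, in 55.2% (54.3 to 55.9%) of peaks for TAF3 and 53.6% (52.8 to 54.3%) for RNAPII. The centre side holds more of the peak by construction, and the more so the larger the offset. The share that this alone would give was not computed, so these values show no preference for the centre. In H3K4me3 peaks with no neighbour within 5 kb these shares were 59.0% and 57.1%. With such a neighbour they were 42.8% and 42.4%.

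The split between peaks with and without a near neighbour was wide where the H3K4me3 summit lay far out. At offsets above 50%, TAF3 lay towards the centre in 60.7% (55.6 to 65.6%) of 369 H3K4me3 peaks without a neighbour within 5 kb, and in 27.7% (23.8 to 32.0%) of 451 peaks with one. For RNAPII the shares were 54.0% of 433 and 27.5% of 499. At offsets of 40 to 50% they were 63.4% and 34.4% for TAF3, and 61.8% and 31.0% for RNAPII. In peaks with a near neighbour and a displaced summit, TAF3 and RNAPII thus lay mostly between that summit and the near edge, or beyond the edge. All 3 lists were called against the same input library.

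H3K4me3 domains were spread out along the genome, with a minority in tight pairs. The median gap from the end of a peak to the start of the next was 48495 bp, with quartiles of 14746 and 130035 bp. A neighbour lay within 1 kb for 12.8% of peaks, within 5 kb for 24.0% (4317 peaks) and within 50 kb for 70.1%. In the full lists TAF3 peaks were spaced much alike, with a median gap of 45356 bp and 27.9% within 5 kb. RNAPII peaks were closer together, with a median gap of 2464 bp and 75.05% within 5 kb. In the filtered lists the shares within 5 kb were 17.1% for H3K4me3, 12.8% for TAF3 and 47.1% for RNAPII, so the order of H3K4me3 and TAF3 turned.

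In most tight pairs the 2 summits faced each other across the gap. In 856 pairs the gap was at most 250 bp, and in 671 of them (78.4%, 75.5 to 81.0%) the summit of the peak with more tags lay in the part nearer to its neighbour. The summit of the weaker peak did so in 75.4%, and both did in 61.9%. With gaps of 250 to 500 bp the share for the stronger peak was 60.1% of 163 pairs, and with gaps of 500 to 1000 bp it was 49.1% of 167. In the 16765 pairs more than 1 kb apart it was 48.5% (47.8 to 49.3%), and both faced in 23.5%. At the same gaps of at most 250 bp the share was 60.5% (57.5 to 63.3%) of 1075 TAF3 pairs and 50.9% (50.0 to 51.7%) of 12511 RNAPII pairs. The caller sets where a peak is split, and its part in the facing summits was not tested. The pairs and the gap limit were chosen after the values had been seen.

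**Figure D3:**
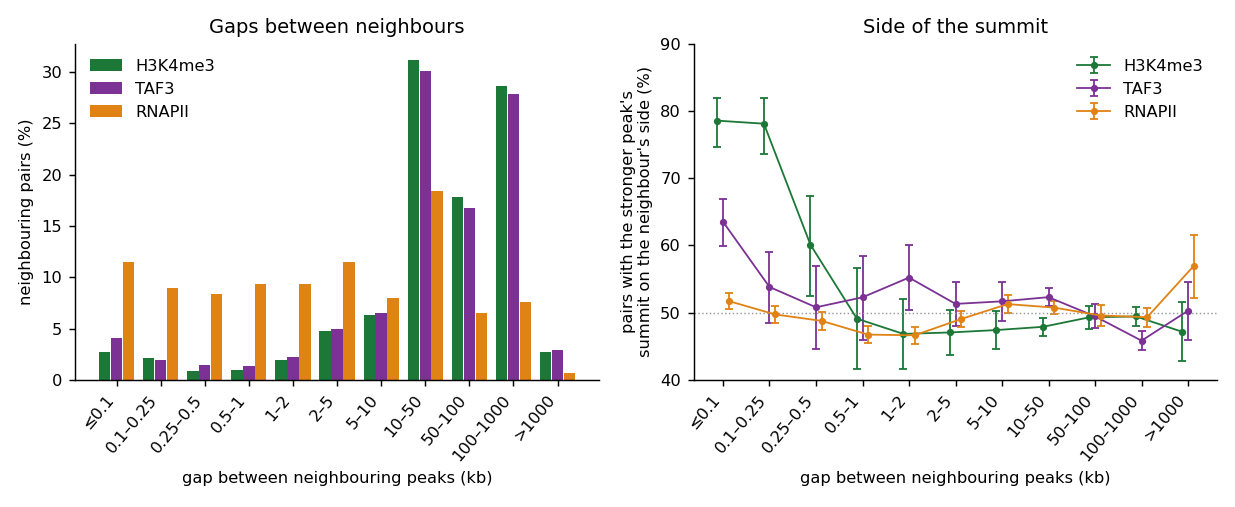
Left, share of neighbouring pairs (vertical axis, bars from 0) by gap in kb for the 3 full lists. Right, share of pairs in which the stronger peak's summit lies in the part nearer to its neighbour, with Wilson 95% intervals as bars and 50% dotted (the axis runs from 40 to 90%); for H3K4me3 it is over 78% in both bins up to 250 bp and 49.1% from 500 to 1000 bp.

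The summits of tight pairs lay close together. Their distance had a median of 890 bp, with 10th and 90th percentiles of 554 and 2077 bp and a minimum of 319 bp. The fullest bin, 600 to 800 bp, held 211 pairs (24.6%). The 2 peaks were unequal, with a median ratio of 5.21 between their tags, and 407 pairs had both peaks in the filtered list, 349 had 1 and 100 had none.

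TAF3 and RNAPII summits between these 2 H3K4me3 summits seldom lay in the gap itself. A TAF3 summit lay between them in 640 of the 856 pairs (74.8%, 71.8 to 77.6%) and an RNAPII summit in 677 (79.1%, 76.2 to 81.7%). Inside the gap between the 2 peaks lay a TAF3 summit in 14 pairs (1.64%) and an RNAPII summit in 25 (2.92%). The gaps are at most 250 bp long, so most partner summits lay within the inner flank of an H3K4me3 peak. Over all 17951 neighbouring pairs, whose summits are mostly much further apart, a TAF3 summit lay between in 69.6% and an RNAPII summit in 90.2%. The share in tight pairs was above that of all pairs for TAF3 and below it for RNAPII. The median summit distance was 890 bp in tight pairs and 50437 bp in all pairs, so these shares are not like for like.

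The closest pair of the list was chr2:162016289-162018765, where a peak of 20 tags and a peak of 903 tags were 1 bp apart. The next 4, ordered by tags among equal gaps, were 2 bp apart. At chr1:17763233-17768736 the peaks held 1728 and 32 tags, and at chr11:63448260-63450466 they held 17 and 705. The others, chrX:149736547-149738271 and chrX:45627614-45631392, held 11 and 364 tags and 16 and 268 tags. In each of the 5 pairs a weak peak stood beside a strong one. The first 4 had both a TAF3 and an RNAPII summit between the H3K4me3 summits, and the last had neither.

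Peaks with a neighbour within 1 kb were shorter and sparser than the rest. Their median width was 1192 bp and their density 127 tags per kb, against 2116 bp and 275 tags per kb in the 4062 peaks whose nearest neighbour was 20 to 50 kb away. Among peaks of at least 2 kb the contrast was smaller, at 317 (304 to 330) against 353 (348 to 357) tags per kb. Their median widths were alike, at 2635.5 and 2634 bp. The 921 most isolated peaks, over 200 kb from any other, had a median of 1940 bp and 191 tags per kb. A filtered TAF3 peak overlapped 57.4% of them (54.2 to 60.6%), compared with 69.0% (67.6 to 70.4%) of those at 20 to 50 kb. Among peaks of at least 2 kb this difference in TAF3 overlap was small, at 93.2% of 444 and 96.9% of 2246.

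When peaks less than 5 kb apart were joined, 15593 domains resulted, of which 13658 were single peaks, 1599 held 2 and 267 held 3. Only 27 held 5 or more. The longest run, chr6:31781840-31805794, had 9 peaks in 23955 bp but only 1996 tags, 1322 of them in the last peak, and 5 of the 9 passed the filter. The run at chr19:1236216-1277138 was of another kind. Its 8 peaks all passed the filter, were 2076 to 6269 bp wide and held 6621 tags in 40923 bp. At chr11:63992287-64020491, 6 filtered peaks of 1685 to 3684 bp held 5918 tags in 28205 bp, each with a filtered TAF3 and a filtered RNAPII peak.

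The widest gap between H3K4me3 neighbours was 21.98 Mb on chromosome 1, from 121261966 to 143239142, with 0 TAF3 peaks and 1 RNAPII peak inside. The next were 20.2 Mb on chromosome 9, 14.8 Mb on chromosome 16, 14.3 Mb on chromosome 5 and 10.6 Mb on chromosome X. The gap on chromosome 16 held 6 TAF3 peaks and 1 RNAPII peak, and that on chromosome 5 held neither. Stretches without assembled or mappable sequence were not taken out of these gaps, nor out of the chromosome spans used for peaks per Mb.

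Chromosomes differed far more in how many H3K4me3 domains they carried than in what the domains looked like. Without chromosome Y, which had 3 peaks, density ran from 3.45 peaks per Mb on chromosome 13 to 22.5 on chromosome 19, with a median of 5.79. The lowest values after chromosome 13 were 3.54 on chromosome 18 and 3.56 on chromosome X. Chromosome 19 was 3.89 times the median chromosome, followed by chromosome 17 with 13.4 and chromosome 22 with 13.0 peaks per Mb. H3K4me3 peaks covered 4.31% of chromosome 19 and 0.658% of chromosome X. The median width, by contrast, lay between 1839 bp (chromosome 19) and 2094.5 bp (chromosome 12). On chromosome 19, 42.0% of peaks had a neighbour within 5 kb, against 11.96% on chromosome 18.

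The order of chromosomes was nearly the same for the other antibodies. Over 23 chromosomes, whose libraries share 1 input, the rank correlation of H3K4me3 peaks per Mb was 0.99 with TAF3 peaks per Mb and 0.97 with RNAPII peaks per Mb. It was 0.60 with the share of close neighbours and 0.073 with median width. There were fewer H3K4me3 peaks for each RNAPII peak on dense chromosomes (rank correlation -0.59), from 0.251 on chromosome 22 to 0.409 on chromosome X.

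**Figure D4:**
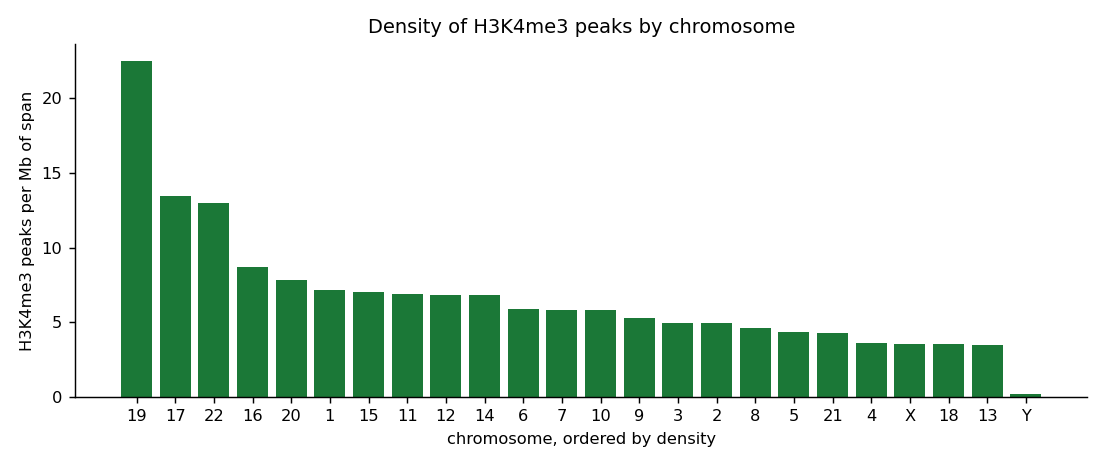
H3K4me3 peaks of the full list per Mb (vertical axis, bars from 0) for each chromosome, over the span from the first to the last peak of the 3 full lists. Chromosome 19 stands at 22.5 peaks per Mb, chromosomes 17 and 22 at about 13 and chromosome 13 at 3.45; chromosome Y has 3 peaks.

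Domains on chromosome X held fewer tags for their length. Among peaks of at least 2 kb, the median was 210 tags per kb (202 to 221) in 236 peaks on X and 348 (345 to 351) in 8647 on the autosomes. The ratio was 0.604, and 0.577 to 0.639 when the ends of the 2 intervals were set against each other. Their width differed little (ratio 0.934), and so did the deposited fold enrichment, at 137 on X and 149 on the autosomes (ratio 0.916). Tags in the TAF3 and RNAPII peaks that overlapped these domains were also fewer per kb on X, with ratios of 0.645 and 0.703. These TAF3 and RNAPII peaks were narrower on X as well, with width ratios of 0.811 and 0.775. Fold enrichment of the TAF3 peaks was 31.01 on X and 36.94 on the autosomes (ratio 0.839, 0.764 to 0.924). For the RNAPII peaks it was 91.47 on X and 101.58 on the autosomes (ratio from 0.831 to 0.9995). Tag density is not divided by input whereas fold enrichment is. The part of the number of chromosome copies in the lower tag density on X was not tested. The comparison was chosen after the values had been seen.

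Within autosomes the tag density also varied by region. The genome was divided into windows of 10 Mb, and the 172 windows with at least 20 peaks of at least 2 kb were kept. Their median densities ran from 203 to 480 tags per kb, with a median of 350 and quartiles of 332 and 362. The 4 lowest were the 4 windows of chromosome X, from 203 to 230. The 11 highest all lay on chromosomes 8, 10, 16 and 17, which supplied 30 of the 172 windows (17.4%). The windows ranked 12 to 15 lay on chromosomes 3, 5, 4 and 2. Chromosomes 8, 10, 16 and 17 thus held 11 of the 15 highest (73.3%). These chromosomes were picked out after their values had been seen.

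Among the kept windows of each, the high ones lay towards the higher coordinates. On chromosome 10 the windows from 100 to 130 Mb had 442, 431 and 480 tags per kb, whereas the kept windows before 100 Mb had 278 to 374. Windows with too few peaks to be kept did not all follow this: the first 10 Mb of that chromosome had 401 tags per kb in 19 peaks, and the last window, from 130 Mb, had 211 in 7 peaks. On chromosome 17 the density was 339 to 359 up to 40 Mb, then 381, 416, 431 and 470 in the 4 windows from 40 to 80 Mb. On chromosome 16 the window from 80 to 90 Mb had 448 and the others 321 to 369. On chromosome 8 the 2 kept windows from 20 to 40 Mb had 340 and 359, and the 4 kept ones beyond 90 Mb had 420 to 474. Windows of that chromosome with too few peaks made the step less sharp. Those from 60 to 80 Mb had 406 and 400 in 18 and 16 peaks. Beyond 90 Mb, the window from 110 Mb had 387 in 9 peaks and that from 130 Mb had 381 in 10. The fold enrichment did not follow, and was 116, 122 and 151 in the 3 high windows of chromosome 10, against 138 to 179 in the kept windows before them. Over all 172 windows the rank correlation of H3K4me3 density was 0.044 with fold enrichment, 0.48 with TAF3 density and 0.35 with RNAPII density in peaks at the same domains. Without the windows of chromosome X the last 2 were 0.44 and 0.31. Copy number of these regions in HCT116 was not tested.

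**Figure D5:**
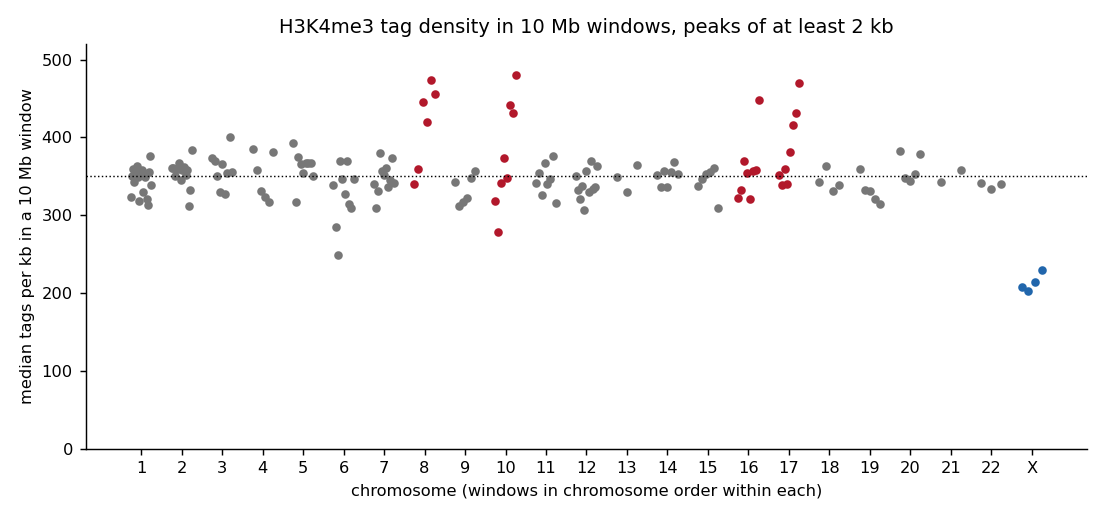
Median tags per kb of H3K4me3 peaks of at least 2 kb (vertical axis, from 0) in each window of 10 Mb with at least 20 such peaks, by chromosome and in chromosome order within each. Windows of chromosomes 8, 10, 16 and 17 are red, those of X blue and the rest grey, and the dotted line is the median of 350; the 11 highest windows are red and the 4 lowest blue.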

How the data were processed

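ChIP-seq of HCT116 cells was analysed from 4 libraries, grouped by sample title: H3K4me3, TAF3, RNAPII and input. The submitters' processing notes name CASAVA 1.8.2, MACS 1.4.2 and the build hg19, and give no alignment settings in the form used here. Each antibody was called against the same input, per the file headers, with a tag size of 35 bp, a p cutoff of 1e-05 and 1 tag kept per position. Tags per peak are deposited as a raw count. The authors' fold enrichment is a ratio, summit tags over local background, and their deposited false discovery rate is in percent. Their deposited score, a rescaled log10 p-value, was not used. Depth is 12560129 unique tags for H3K4me3, 17411155 for TAF3, 16841238 for RNAPII and 19185386 for input.

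Density, summit offset, gaps and overlaps (at least 1 bp) were computed here from these columns with Python 3.11.15, numpy 2.4.6, pandas 2.3.3 and scipy 1.17.1, and drawn with matplotlib 3.10.9. Tested on simulated data, the code passed 9 of 9 checks. Named peaks are the first 5 by fold enrichment, width, density, tags and nearness of the summit to an edge, the 3 longest runs, the 5 closest pairs, the 5 widest gaps and peaks at the filter thresholds; up to 5 are given. The members and lists were chosen with earlier results of these data known. The alternatives were the filtered list, the upper 50% by fold enrichment, minimum tags or width, and other distances and spans. The gene annotation and promoter sequences at hand were on another build, so genes and sequences are not analysed here.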

Additional observations from a re-analysis of the deposited data

How the results depend on the processing

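Among the 38 alternatives, 26 gave a value outside the 95% interval of the reported one and 12 did not. Under the authors' filtered list, the upper 50% by fold enrichment and a minimum of 100 tags, in that order, the median width was 2240, 2531 and 2324 bp (reported as 1985), the density 295, 351 and 309 tags per kb (239) and the offset 17.3, 16.3 and 16.98% (17.9). Among peaks of at least 1000 bp the density was 296 tags per kb and the offset 17.4%. The share of peaks with a neighbour within 5 kb (24.0%) was 17.1, 7.91 and 14.3% under the same 3 lists, 18.6% from summit to summit, 16.2% at 2 kb and 33.5% at 10 kb. These lists hold fewer peaks, which lengthens gaps by construction. The upper 10% of peaks held 23.2% of tags in the filtered list and 18.9% in the upper 50% by fold enrichment (27.7% in the full list). Chromosome 19 stood at 4.11 times the median chromosome in the filtered list and 3.38 times with peaks under 5 kb apart joined (3.89).

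The remaining alternatives that moved a value were chosen after seeing the data. With no neighbour within 5 kb, the partner summit lay towards the centre in 59.0% of peaks for TAF3 (55.2% in all) and 57.1% for RNAPII (53.6%). The X to autosome ratio of density was 0.647 in the filtered list and 0.714 in the full list (0.604 at 2 kb and wider). Tight pairs with both peaks in the filtered list had the stronger summit facing in 84.3% (78.4%). The cause of these shifts was not tested. With windows of 5 Mb, or every filtered peak, 66.7% of the 15 densest windows lay on chromosomes 8, 10, 16 and 17 (73.3% reported), which is within the interval of the reported share. No paired analysis was possible because there is 1 library per antibody, and for the same reason no library could be left out. Depth limits the weakest peaks most: 10 tags is the fewest in any peak.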
